A study of Mus musculus with 8 samples.

Results

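The chemokine ligands are the secreted proteins of the Ccl, Cxcl, Cx3cl and Xcl families, and they were followed here in the skin of mice that lose hair in patches. Every array probe was taken whose RefSeq accession belongs to a gene named Ccl or Cxcl with a number, or to Cx3cl1 or Xcl1. This gave 41 of 55681 probes, for 34 of the 40 mouse genes with such names, out of 20128 genes named on the array. No probe matched Ccl21a, Ccl21b, Ccl21c, Ccl21d, Ccl27b or Cxcl11, and these genes were not analysed here. RNA from 8 skin samples of C57BL/6N mice was measured, 1 array each: 2 samples of hair loss skin and 4 of normal skin from Cchcr1 mutants, and 2 of normal skin from wild type mice. The series title names allele-specific CRISPR/Cas9 editing as the source of the mutation. No treatment, age or sex is given, and nothing but genotype and hair phenotype separates the groups in the labels. The sample titles also carry a number. Mutant097 and Mutant113 each have 1 hair loss and 2 normal skin samples, and both wild type samples are Wild001. Whether a number marks an animal is not stated, so the p-values measure only the spread between these samples, which may be technical.

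Chemokines bind receptors on leukocytes and guide the cells along a gradient into tissue. Inflammatory ligands are switched on by cytokines: interferon-gamma induces Cxcl9 and Cxcl10, which act through Cxcr3 on activated T cells, while interleukin-1 and tumour necrosis factor act through NF-kB on ligands of neutrophils such as Cxcl1. Homeostatic ligands are made constantly and place cells in healthy tissue, as Ccl27a and Cxcl14 do in the epidermis. In alopecia areata, T cells gather around the hair follicle, and the interferon-induced ligands are among the genes studied most there.

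Levels below are log2 processed intensities with the 75th percentile of the array subtracted, so that a probe at that percentile has the level 0. Levels of different probes are not set against each other. A gene with several probes is represented by the brightest. Of the 34 genes, 26 were well above background, by the mark of the scanner software, on at least 2 arrays and were tested. Of these, 21 were above it on all 8 arrays. The other 8 genes (Ccl20, Ccl22, Ccl26, Ccl28, Cxcl2, Cxcl3, Cxcl15 and Cxcl17) were above it on none, and give no difference. RNA came from whole pieces of skin, in which fewer cells of a type and less RNA per cell cannot be told apart.

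Several properties of the samples run along with the groups. The targeted gene Cchcr1 was well above background on all 8 arrays, at levels from -0.07 to 0.49, and did not separate the genotypes (mutant normal skin minus wild type 0.17, limma adjusted p = 0.688). Where its probe lies relative to the edit is not given in the sources used here, so this level does not check the labels. Xist was well above background in the 3 samples of Mutant113 alone. Eif2s3y and Ddx3y, on the Y chromosome, were well above background in the 5 samples of Mutant097 and wild type and in none of Mutant113. On the slide, the hair loss arrays shared row 1 with normal skin from Mutant097, while row 2 carried wild type and the remaining mutant arrays. Row, Xist and title number therefore cannot be told apart within mutant normal skin. Summed hair shaft keratins were at 1.19 and 1.86 times the 75th percentile in wild type, at 54.7 to 613 in mutant normal skin and at 384 and 1083 in hair loss. Fibroblast markers summed to 182 to 648 in mutant samples and 622 and 1065 in wild type. In both mutant groups limma called 3 of 4 hair shaft genes higher than in wild type and 1 of 4 fibroblast genes lower. The share called over all probes was 0.694% for mutant normal skin and 1.42% for hair loss. Skeletal muscle markers summed to 785 and 794 in wild type, 305.0 to 748 in mutant normal skin and 383 and 125 in hair loss, with all 4 lower in hair loss than in mutant normal skin and 3 without overlap. Against wild type limma called 1 of the 4 lower in hair loss and, in the model by title number, all 4 in the hair loss sample of Mutant113, beside 1.94% of all probes. Mast cell markers summed to 6.40 and 7.74 in wild type, 6.03 to 11.3 in mutant normal skin, and 6.60 and 24.2 in hair loss of Mutant097 and Mutant113. Of these 3 genes limma called 1 higher in hair loss than in wild type, Kit, which melanocytes also make, beside 1.42% of all probes. Kit was at 0.95 and 1.39 in hair loss of Mutant097 and Mutant113, and at -0.80 and -0.65 in wild type. Cpa3 was at 1.77 and 4.04 in hair loss of Mutant097 and Mutant113, and at 2.19 and 2.41 in wild type. The part of these differences in the ligand results was not tested.

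With limma and Benjamini-Hochberg adjustment over the 30417 probes tested, 0 of the 26 ligands passed an adjusted p of 0.05 in any of the 3 group comparisons. Across the array the percentage that passed was 0 for hair loss minus mutant normal skin, 0.694 for mutant normal skin minus wild type and 1.42 for hair loss minus wild type. Hair loss skin had higher levels than mutant normal skin for 19 ligands and lower levels for 7, with a median difference of 0.37 against -0.01 over all probes. At an unadjusted p under 0.05 there were 2 higher ligands, Ccl3 and Ccl4, and 0 lower ones, where 5.2% of all probes reached that level. In 6 ligands (Ccl2, Ccl3, Ccl4, Ccl7, Ccl17 and Ccl19) both hair loss samples lay above all 4 mutant normal samples, as did 5.73% of all probes. Only Ccl24 had both hair loss samples below, as did 6.68% of all probes.

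Mutant normal skin was higher than wild type for 12 ligands and lower for 14, with a median of -0.09 against -0.04 over all probes. At an unadjusted p under 0.05, limma gave 1 higher ligand, Cxcl14, and 2 lower ones, Ccl6 and Ccl9, beside 17.2% of all probes. The groups did not overlap for 3 higher ligands (Ccl25, Cx3cl1 and Cxcl14), beside 13.6% of all probes, and for 5 lower ones (Ccl5, Ccl6, Ccl8, Ccl9 and Ccl12), beside 14.8%. Hair loss minus wild type gave 17 higher and 9 lower ligands with a median of 0.34 against -0.06 over all probes. It gave 8 higher and 2 lower ligands at an unadjusted p under 0.05, where the array as a whole gave 24.8%. The groups were apart for 11 higher ligands, beside 24.8% of all probes, and for 5 lower ones, beside 28.5%. Since the comparisons share samples, their values are given side by side for each ligand.

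**Figure D1:**
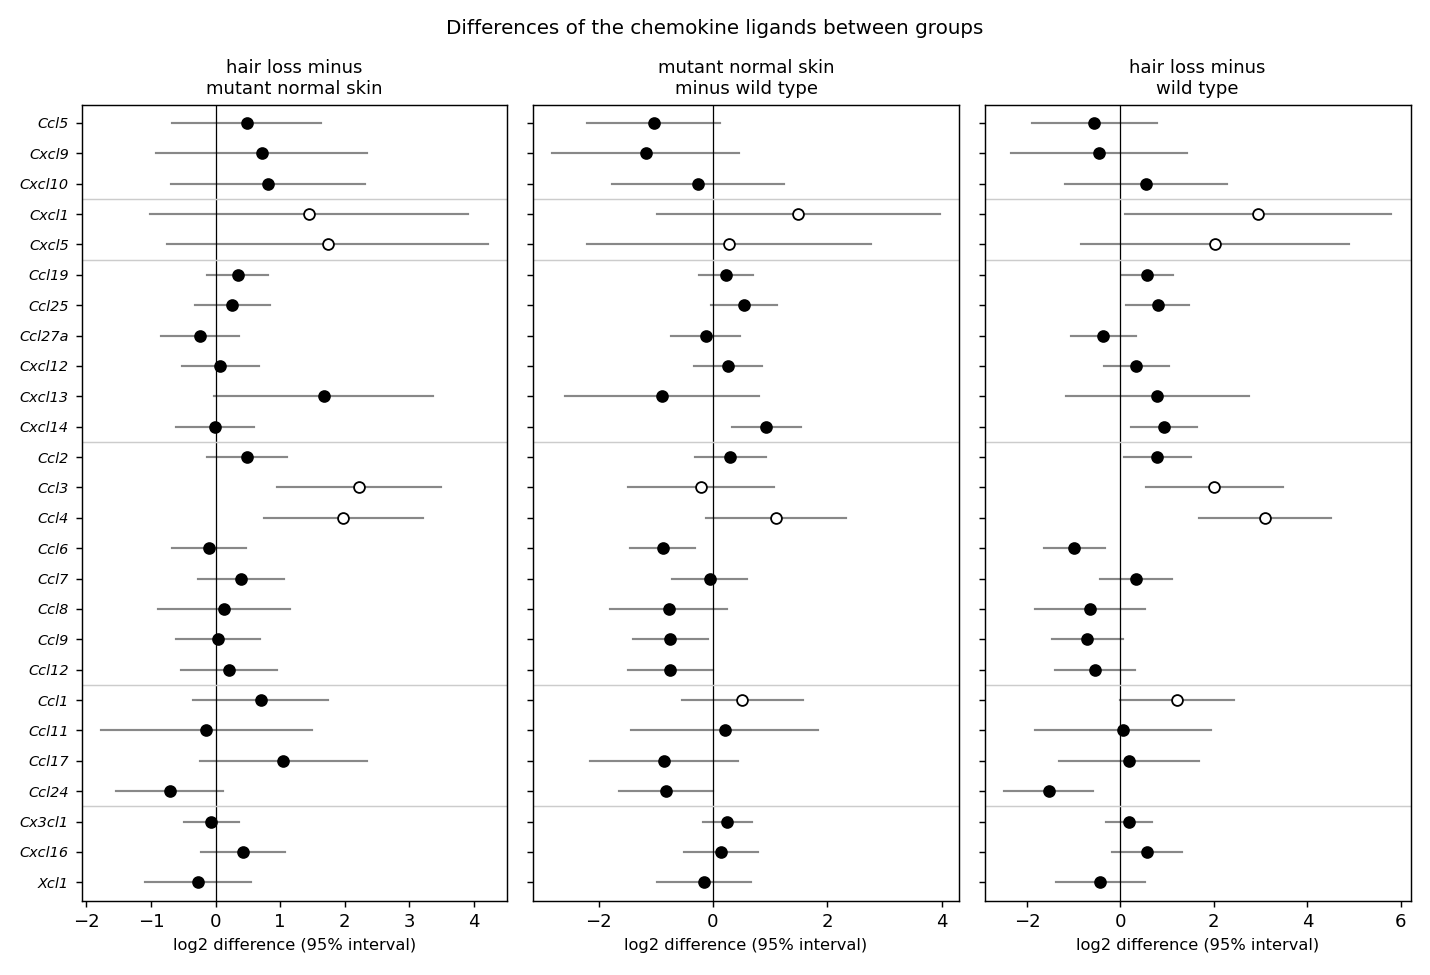
Log2 difference (x axis) of each of the 26 tested ligands (y axis) in the 3 comparisons, with 95% limma intervals as grey lines; filled points mark ligands well above background on every array of both groups, open points the others. Ccl3 and Ccl4 have the intervals farthest above 0 in hair loss minus mutant normal skin, from 0.95 to 3.49 and from 0.75 to 3.21, and both are open points.

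The T cell attracting ligands with a probe were Cxcl9, Cxcl10 and Ccl5, and all were well above background on 8 arrays. Cxcl9, which is induced by interferon-gamma and binds Cxcr3, was at -1.56 in the hair loss sample of Mutant097 and 0.76 in that of Mutant113. In mutant normal skin it was at -1.97 and -0.92 in Mutant097 and -0.04 and -1.52 in Mutant113, and in wild type at -0.13 and 0.25. The hair loss sample of Mutant113 was the highest of all 8, while that of Mutant097 lay inside the range of mutant normal skin and below both wild type samples. The mean difference between hair loss and mutant normal skin was 0.72 (SE 0.70, 95% limma interval -0.92 to 2.35, adjusted p = 0.999). It was -1.17 between mutant normal skin and wild type (-2.80 to 0.46, adjusted p = 0.43), and the groups overlapped in each of the 3 pairs.

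Cxcl10, another interferon-induced ligand of Cxcr3, was at -0.34 and 1.05 in hair loss skin of Mutant097 and Mutant113. In mutant normal skin it was at -1.27 and -0.53 in Mutant097 and -0.21 and 0.19 in Mutant113, and in wild type at -1.19 and 0.80. The wild type pair alone spans most of the range of the series. Hair loss minus mutant normal skin was 0.81 (-0.69 to 2.31, adjusted p = 0.999). Ccl5, which draws T cells and other leukocytes, was at -0.06 and 1.46 in hair loss, at -0.67, 0.80, 0.39 and 0.37 in mutant normal skin and at 1.17 and 1.34 in wild type. All 4 mutant normal samples lay below both wild type samples, by a mean of 1.04 (difference -1.04, -2.19 to 0.12, adjusted p = 0.335), and hair loss overlapped with both groups.

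Within the numbers, the difference between hair loss and normal skin was -0.11 for Cxcl9, 0.56 for Cxcl10 and -0.12 for Ccl5 in Mutant097. In Mutant113 it was 1.54, 1.06 and 1.08. Each of these rests on 1 hair loss sample. The difference between the numbers in this effect had wide intervals, from -0.87 to 4.18 for Cxcl9, from -2.40 to 3.40 for Cxcl10 and from -0.85 to 3.25 for Ccl5 (adjusted p = 0.68, 0.928 and 0.717). A second, dimmer Cxcl9 probe gave 2.19 for it (0.28 to 4.11, unadjusted p = 0.0314, adjusted p = 0.479), with the hair loss sample of Mutant097 not well above background. On that probe all mutant normal samples lay below wild type (-1.29, adjusted p = 0.427), and hair loss minus mutant normal skin was 0.21. The cytokine gene Ifng was well above background on 6 arrays, with hair loss at -4.27 (Mutant097) and -2.28 (Mutant113), mutant normal skin from -4.69 to -2.62 and wild type at -2.60 and -2.67. Its hair loss minus mutant normal difference was 0.12 (adjusted p = 0.999), and that of Cxcr3 was 0.21 (adjusted p = 0.999).

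Of 6 T cell markers, 4 were tested, and 0 were called by limma in any of the 3 comparisons (0 at an unadjusted p under 0.05). Their summed level was 7.79 and 11.1 times the 75th percentile in wild type, 8.17 to 11.9 in mutant normal skin and 8.33 and 9.68 in hair loss. Cd8b1 was above background on 0 arrays and Cd8a on 1. The hair loss samples thus lay inside the range of mutant normal skin, and in that of wild type.

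The promoters of Cxcl9 and Cxcl10 are shown with that of Cxcl1 because these ligands stand for the interferon and the NF-kB responses. Each window holds the 250 bases before the start of transcription, from RefSeq on GRCm38.p6, in the direction of the gene. Capitals mark matches to the core of the interferon-stimulated response element (ISRE), written here as GAAA, any 2 bases, GAAA, or to the NF-kB consensus, searched on both strands. Cxcl9 is at chr5:92328080-92328329 and Cxcl10 at chr5:92348890-92349139, both on the minus strand, and Cxcl1 is at chr5:90890995-90891244 on the plus strand.
Cxcl9: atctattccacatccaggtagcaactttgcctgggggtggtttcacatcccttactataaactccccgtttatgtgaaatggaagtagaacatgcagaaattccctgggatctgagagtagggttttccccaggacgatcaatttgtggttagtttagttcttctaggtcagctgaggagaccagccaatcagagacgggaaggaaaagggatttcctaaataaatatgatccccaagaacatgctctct
Cxcl10: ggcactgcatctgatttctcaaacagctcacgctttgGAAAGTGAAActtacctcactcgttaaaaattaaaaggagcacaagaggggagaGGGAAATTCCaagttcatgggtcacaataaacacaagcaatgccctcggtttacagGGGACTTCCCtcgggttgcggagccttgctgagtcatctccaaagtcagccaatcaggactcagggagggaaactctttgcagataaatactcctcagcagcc
Cxcl1: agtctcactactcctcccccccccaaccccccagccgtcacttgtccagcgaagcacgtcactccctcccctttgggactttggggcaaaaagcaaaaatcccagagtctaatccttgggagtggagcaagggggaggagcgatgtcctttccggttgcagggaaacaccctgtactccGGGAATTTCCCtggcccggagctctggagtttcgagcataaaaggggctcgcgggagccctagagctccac
Cxcl10 holds 1 ISRE match, 213 bases before the start, and 2 NF-kB matches, 159 and 103 bases before it. In Cxcl1 there are 2 NF-kB matches that overlap, at 71 and 70 bases, and the window of Cxcl9 holds neither set of letters. Over all 32851 promoter windows of the same length, 2.98% hold the ISRE letters and 3.9% the NF-kB consensus. Among 27 windows of 24 ligand genes, ISRE letters were found in 3 (Ccl19, Cxcl10 and Cxcl14) and NF-kB letters in 6 (Ccl9, Ccl20, Cxcl1, Cxcl2, Cxcl3 and Cxcl10). A match describes the letters only.

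Among the neutrophil attracting ligands, Cxcl2 was above background on no array. Cxcl1, which acts through Cxcr2, was well above background in both hair loss samples, at -2.52 in Mutant097 and -2.04 in Mutant113, and in both normal skin samples of Mutant113, at -2.28 and -2.04. It was not well above background in normal skin of Mutant097, at -6.14 and -4.46, or in wild type, at -5.19 and -5.27. The 4 detected samples are thus all 3 samples of Mutant113 and the hair loss sample of Mutant097. Against wild type the mean hair loss level was at least 2.13-fold higher, measured to the floor of the arrays (measured difference 2.94, 0.10 to 5.79, limma adjusted p = 0.19). Such a bound concerns the means of these samples only, and the interval reaches below it. With the slide row as a block the difference of hair loss from wild type was 6.08 (limma adjusted p = 0.00983). That fit links hair loss to wild type only through the mutant normal skin of both rows. It takes the difference between normal skin of Mutant113 and Mutant097, 3.14, as one of row. Row and number cannot be told apart there, so 6.08 cannot be read as a value corrected for row. With normexp background correction, which adds an offset and pulls dim probes together, the difference from wild type was 0.36 (adjusted p = 0.408).

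Hair loss minus mutant normal skin was 1.45 for Cxcl1 (-1.02 to 3.91, adjusted p = 0.999). Within row 1, where the mutant normal skin is that of Mutant097, hair loss was at least 2.66-fold higher, since neither normal skin sample there was well above background (measured difference 3.02, limma adjusted p = 0.168). Within Mutant097 the hair loss sample was at least 2.26-fold higher (adjusted p = 0.202), whereas within Mutant113 the difference was 0.12 (-1.52 to 1.76, adjusted p = 1). Cxcl5, another ligand of Cxcr2, was detected in 2 samples, the hair loss sample of Mutant113 at -1.89 and 1 of its normal skin samples at -2.89. The other 6 samples, from -6.14 to -4.88, were not well above background. Cxcr2 itself was above background on 2 arrays, with a hair loss minus mutant normal difference of 1.64 (adjusted p = 0.884).

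Of 8 neutrophil markers 7 had a probe and 6 were tested, with 0 called by limma. Between hair loss and mutant normal skin 2 were higher and 0 lower at an unadjusted p under 0.05, beside 5.2% of all probes. The sum, most of it Csf3r, was 110 and 189 times the 75th percentile in wild type, 126 to 216 in mutant normal skin and 159 and 239 in hair loss, and Ngp was above background on 0 arrays. S100a9, abundant in neutrophils and also made by stressed keratinocytes, was at 2.86 and 2.47 in hair loss, at 1.30, 0.87, 2.40 and 1.52 in mutant normal skin and at 0.83 and 1.81 in wild type. Hair loss was above the other groups there without overlap (difference from mutant normal skin 1.14, adjusted p = 0.935). Against wild type, 3 of the 6 markers were higher and 3 lower in hair loss. Mpo, the myeloperoxidase of neutrophil granules, was well above background in both wild type samples, at -2.27 and 1.67, in 1 mutant normal sample, at 0.66, and in no hair loss sample. Camp had a mean of -2.21 in hair loss, -2.97 in mutant normal skin and -1.83 in wild type, and Retnlg one of -2.99, -2.85 and -1.90. Whether neutrophils take part in the Cxcl1 values was not tested.

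**Figure D2:**
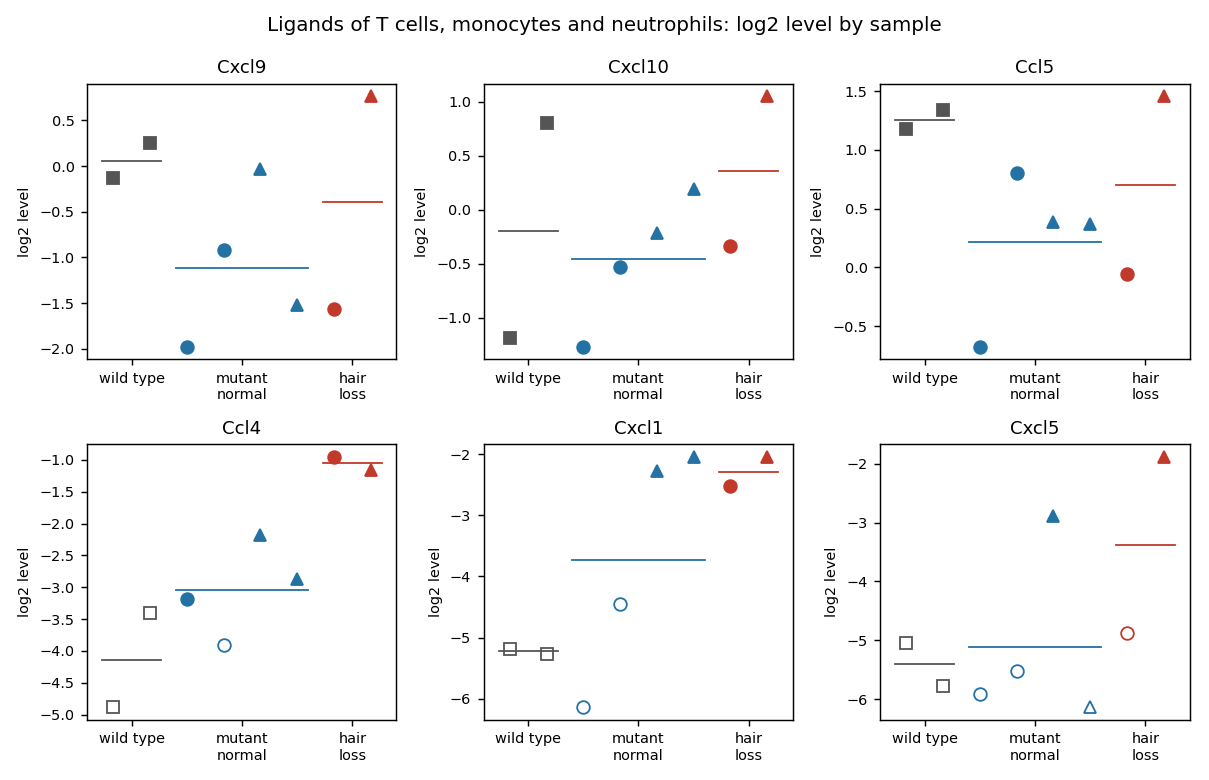
Log2 level (y axis, 0 is the 75th percentile of the array) of 6 ligands in each sample by group (x axis): squares are wild type, circles Mutant097, triangles Mutant113, open symbols are samples not well above background, and lines are group means. Ccl4 is highest in the 2 hair loss samples, at -0.95 and -1.16, while Cxcl1 is filled in all samples of Mutant113 and in the hair loss sample of Mutant097.

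Of the 8 CC ligands that draw monocytes and related cells, 4 (Ccl2, Ccl3, Ccl4 and Ccl7) had hair loss above all mutant normal samples, and 4 (Ccl6, Ccl8, Ccl9 and Ccl12) had wild type above all mutant samples, as did 12.5% of all probes. Except for Ccl4, the members of this list are named after their values were seen. Ccl4, made by activated macrophages, T and NK cells, was at -0.95 and -1.16 in hair loss of Mutant097 and Mutant113. In mutant normal skin it was at -3.19 and -3.91 in Mutant097 and -2.18 and -2.88 in Mutant113, and in wild type at -4.89 and -3.41. Both hair loss samples lay above the other 6, and the probe was well above background in both hair loss samples, in 3 of 4 mutant normal samples and in 0 of 2 wild type samples.

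The difference between hair loss and mutant normal skin was 1.98 for Ccl4 (SE 0.53, 0.75 to 3.21, unadjusted p = 0.00601, adjusted p = 0.749). It was 2.59 within Mutant097 and 1.37 within Mutant113 (adjusted p = 0.236 and 1). Against wild type, the mean of hair loss was at least 4.44-fold higher, measured to the floor of the arrays (measured difference 3.09, limma adjusted p = 0.0576). The interval, 1.68 to 4.51, reaches below that bound, which leaves sampling error out. For mutant normal skin, where 3 of 4 samples were well above background, the measured difference was 1.11 (-0.12 to 2.34, limma adjusted p = 0.329). The hair loss difference from wild type passed the limma threshold with the row as a block (4.11, adjusted p = 0.0328), under the limit given for Cxcl1. It also passed with a stricter filter (adjusted p = 0.043), and without mutant normal skin sample 2 (0.0486) or 3 (0.0395). It did not pass with the mean per title number (adjusted p = 0.216), without wild type sample 1 (2.35, adjusted p = 0.236) or without the hair loss sample of Mutant097 (adjusted p = 0.221), and over all alternatives the adjusted p ran from 0.0328 to 0.236. Normexp background correction gave 0.65 for hair loss minus mutant normal skin and 0.62 for hair loss minus wild type (adjusted p = 0.867 and 0.12). For mutant normal skin minus wild type it gave -0.03, the opposite sign, and without wild type sample 1 that difference was 0.37.

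Ccl3, a close relative of Ccl4, was at -3.15 and -2.18 in hair loss, at -4.64, -5.50, -3.79 and -5.62 in mutant normal skin and at -5.01 and -4.34 in wild type. It was well above background in 2 samples only, the hair loss and 1 normal skin sample of Mutant113, so that the higher values of Mutant097 are below the mark. Hair loss minus mutant normal skin was 2.22 (0.95 to 3.49, unadjusted p = 0.00396, adjusted p = 0.71), and 0.35 with normexp. Against wild type the measured difference of hair loss was 2.01 (0.54 to 3.48, limma adjusted p = 0.118). No lower bound is given for it, since only 1 of 2 hair loss samples was well above background, beside 0 of 2 wild type samples.

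Ccl2, the main ligand of Ccr2 on blood monocytes, was at 2.33 and 2.18 in hair loss, at 1.86, 1.68, 1.82 and 1.72 in mutant normal skin and at 0.97 and 1.96 in wild type. Both hair loss samples were the highest, by a mean of 0.48 over mutant normal skin (-0.13 to 1.1, adjusted p = 0.991) and 0.79 over wild type (0.08 to 1.51, adjusted p = 0.168). Ccl7, which also binds Ccr2, was at 2.87 and 2.72 in hair loss, from 2.26 to 2.52 in mutant normal skin and at 1.92 and 3.0 in wild type. It was above all mutant normal samples in hair loss, but a wild type sample was higher still (hair loss minus mutant normal skin 0.39, adjusted p = 0.999).

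Ccl6, a ligand of Ccr1 made by myeloid cells, was at 3.78 and 4.12 in hair loss, at 3.65, 4.29, 3.99 and 4.28 in mutant normal skin and at 4.74 and 5.13 in wild type. All 6 mutant samples lay below both wild type samples, with differences of -0.88 for mutant normal skin (-1.45 to -0.31, unadjusted p = 0.00755, adjusted p = 0.161) and -0.99 for hair loss (-1.64 to -0.33, adjusted p = 0.101). Ccl9, of similar kind, was at 3.05 and 3.53 in hair loss, from 2.86 to 3.68 in mutant normal skin and at 3.78 and 4.21 in wild type. It gave -0.74 for mutant normal skin (-1.40 to -0.09, adjusted p = 0.244) and -0.71 for hair loss (adjusted p = 0.225), again with wild type above every mutant sample. For neither did hair loss differ from mutant normal skin beyond its interval (-0.67 to 0.46 and -0.61 to 0.69).

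Ccl8, a ligand of Ccr8 in the mouse that resident macrophages make, was at 7.41 and 7.48 in wild type, while normal skin was at 7.20 and 7.35 for Mutant097 and at 6.40 and 5.77 for Mutant113. In hair loss it was at 7.09 in Mutant097 and 6.52 in Mutant113. All mutant samples were below wild type, those of Mutant113 most (normal skin of Mutant113 minus wild type -1.36, adjusted p = 0.0563; of Mutant097 -0.17, adjusted p = 0.721). Ccl12, a mouse ligand of Ccr2, was at 1.08 and 1.49 in wild type, at 1.05 and 0.79 in normal skin and 0.99 in hair loss of Mutant097, and at 0.29 and 0.03 in normal skin and 0.50 in hair loss of Mutant113. Its difference between mutant normal skin and wild type was -0.74 (-1.49 to 0.00, adjusted p = 0.291), with no overlap.

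Macrophage markers were lower in the same samples. All 5 of the 6 listed genes that had a probe were lower in mutant normal skin than in wild type, with a median log2 difference of -1.02. The groups did not overlap for any of the 5, beside 14.8% of all probes lower without overlap. All 5 reached an unadjusted p under 0.05 in limma, beside 17.2% of all probes, while 0 were called after adjustment. Their summed level was 145 and 155 in wild type, 61.7 to 104 in mutant normal skin and 70.8 and 83.0 in hair loss, in multiples of the 75th percentile. The part of this marker shift in the levels of Ccl6, Ccl8, Ccl9 and Ccl12 was not tested.

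Among the ligands linked to eosinophils and type 2 responses, Ccl24 was lowest in hair loss. Ccl24, a ligand of Ccr3 on eosinophils, was at 0.66 and 0.59 in hair loss, at 1.04, 1.71, 0.74 and 1.86 in mutant normal skin and at 1.81 and 2.50 in wild type. The hair loss pair lay below all other samples, and a mutant normal sample overlapped with wild type. Hair loss minus wild type was -1.53 (-2.49 to -0.58, adjusted p = 0.09), and hair loss minus mutant normal skin -0.71 (-1.54 to 0.12, adjusted p = 0.988). The difference was the same, -0.71, within each number.

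Ccl17, which draws Ccr4-bearing T cells and is made by dendritic cells, was at -0.23 and -0.03 in hair loss, at -2.54, -0.65, -0.54 and -0.95 in mutant normal skin and at -0.75 and 0.12 in wild type. Hair loss was above all mutant normal samples (1.04, -0.25 to 2.34, adjusted p = 0.991) and inside the wild type range. Without the lowest sample, normal skin sample 1 of Mutant097, the difference was 0.59. Ccl1, a ligand of Ccr8, was at -1.10 in both hair loss samples, at -2.17, -0.88, -1.71 and -2.42 in mutant normal skin and at -2.83 and -1.80 in wild type, where 1 sample was not well above background. The difference from wild type was 1.21 (0.00 to 2.43, adjusted p = 0.202). Ccl11, the eosinophil ligand eotaxin, named after its values were seen, went with the title number: it was at 0.00, 0.10 and 0.96 in Mutant097, at 2.14, 1.72 and 2.06 in Mutant113 and at 0.61 and 1.40 in wild type, hair loss being the first value of each number.

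Of the homeostatic ligands 6 were tested. Cxcl14, which is made by keratinocytes in healthy epidermis, was at 5.43 and 4.78 in hair loss, at 4.82, 5.05, 5.47 and 5.10 in mutant normal skin and at 3.99 and 4.36 in wild type. All 6 mutant samples were above both wild type samples, as in 11.8% of all probes, while hair loss and normal skin of mutants were alike in mean, at 5.11 ± 0.46 (SD, n = 2) and 5.11 ± 0.27 (SD, n = 4). Mutant normal skin minus wild type was 0.94 (0.33 to 1.54, unadjusted p = 0.00754, adjusted p = 0.161), and hair loss minus wild type 0.93 (0.23 to 1.63, adjusted p = 0.123).

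Ccl27a, the keratinocyte ligand of Ccr10 on skin-homing T cells, was at 5.70 and 6.02 in hair loss, at 5.89, 6.61, 5.96 and 5.92 in mutant normal skin and at 6.02 and 6.43 in wild type. The groups overlap, with differences of -0.24 (hair loss minus mutant normal skin, adjusted p = 0.999) and -0.13 (mutant normal skin minus wild type, adjusted p = 0.835). A dimmer Ccl27a probe was higher in mutant normal skin, by 0.45 (adjusted p = 0.306), and the near-identical gene Ccl27b may share the signal. Cxcl12, which holds leukocytes and stem cells through Cxcr4, was at 3.94 and 4.20 in hair loss, at 3.67, 3.71, 4.48 and 4.12 in mutant normal skin and at 3.71 and 3.74 in wild type. Its 3 samples of Mutant113 were the highest. A second Cxcl12 probe, for another transcript, gave -0.60 for mutant normal skin minus wild type (adjusted p = 0.355) where the first gave 0.27.

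Ccl19, a ligand of Ccr7 that guides dendritic cells and T cells, was at 2.31 and 2.26 in hair loss, at 2.05, 2.16, 1.59 and 1.98 in mutant normal skin and at 1.59 and 1.83 in wild type. Hair loss was above all other samples, by 0.34 over mutant normal skin (-0.13 to 0.81, adjusted p = 0.994) and 0.58 over wild type (0.03 to 1.12, adjusted p = 0.182). All 3 of its probes were higher in hair loss than in mutant normal skin, by 0.34 to 0.37, and copies of Ccl19 in the genome may share the signal. Ccl25, the ligand of Ccr9, was at 0.29 and -0.37 in hair loss, at -0.48, -0.37, 0.06 and -0.41 in mutant normal skin and at -1.0 and -0.69 in wild type, below every mutant sample (hair loss minus wild type 0.80, 0.13 to 1.47, adjusted p = 0.147).

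Cxcl13, the B cell ligand of Cxcr5, was at -0.03 and -1.36 in hair loss, at -2.10, -2.71, -1.24 and -3.42 in mutant normal skin and at -0.53 and -2.44 in wild type. Hair loss was higher than mutant normal skin by 1.67 (-0.02 to 3.37, adjusted p = 0.957), with overlap through 1 sample of Mutant113. Wild type overlapped with both other groups. Cxcr5 was above background on 0 arrays.

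**Figure D3:**
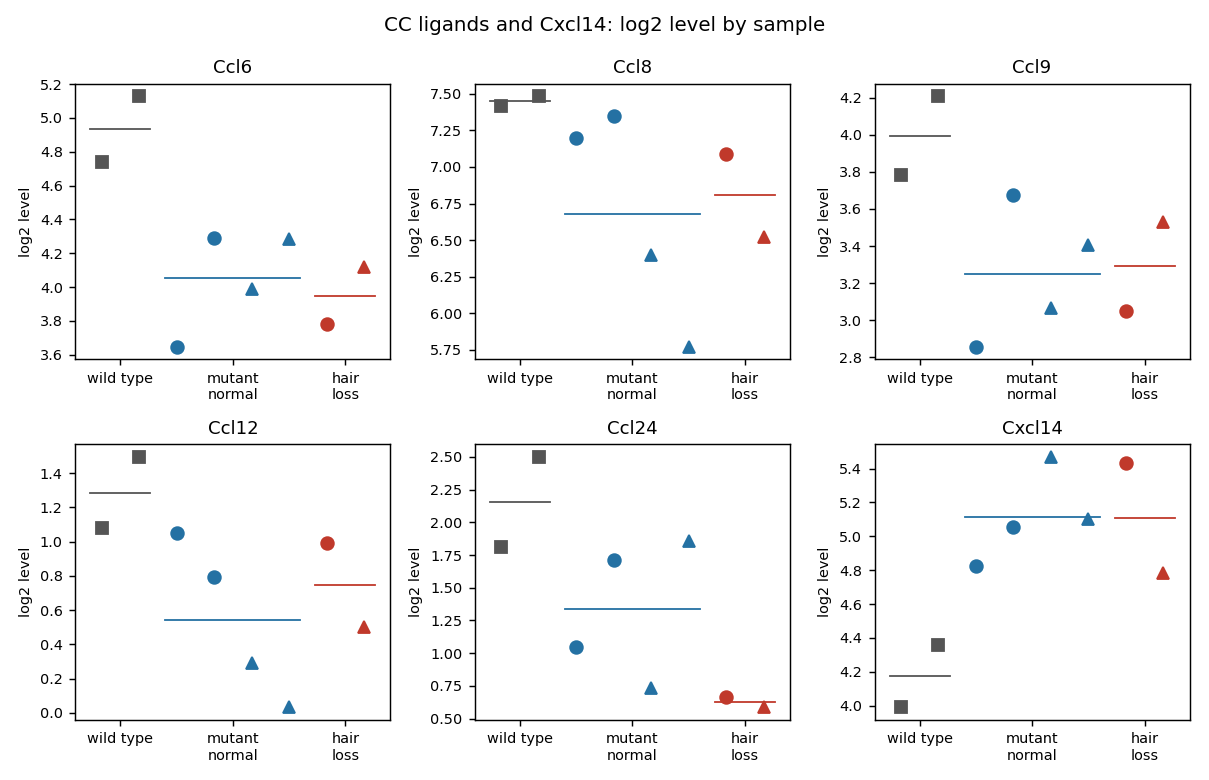
Log2 level (y axis, 0 is the 75th percentile of the array) of 5 CC ligands and Cxcl14 in each sample by group (x axis): squares are wild type, circles Mutant097, triangles Mutant113, and lines are group means. Wild type lies above all mutant samples for Ccl6, Ccl8, Ccl9 and Ccl12 and below all of them for Cxcl14, and Ccl24 is lowest in hair loss at 0.66 and 0.59.

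The other ligands were named after their values were seen. Cx3cl1, a membrane-bound ligand of Cx3cr1, was at 1.1 and 1.59 in hair loss, from 1.36 to 1.48 in mutant normal skin and at 1.09 and 1.23 in wild type. Cxcl16, the ligand of Cxcr6, was at 1.58 and 2.12 in hair loss, from 0.97 to 1.79 in mutant normal skin and at 1.07 and 1.50 in wild type. Hair loss overlapped with mutant normal skin for both, with differences of -0.06 (-0.49 to 0.36) and 0.42 (-0.23 to 1.07). Xcl1, made by activated T and NK cells for Xcr1-bearing dendritic cells, was lowest in the hair loss sample of Mutant097, at -2.36, and at -1.30 in that of Mutant113. Mutant normal skin was at -1.33 and -1.28 in Mutant097 and -1.91 and -1.69 in Mutant113, and wild type at -1.77 and -1.04.

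The 4 mutant normal skin samples were also compared by title number. Normal skin of Mutant113 minus that of Mutant097, from a model of group by number, gave 0 of 26 ligands called, beside 0.266% of all probes, and 3 higher and 2 lower at an unadjusted p under 0.05, beside 15.8%. The samples were apart for 6 higher ligands (Ccl4, Ccl11, Cxcl1, Cxcl10, Cxcl12 and Cxcl14), beside 24.1% of all probes, and for 4 lower ones (Ccl8, Ccl12, Ccl19 and Xcl1), beside 31.9%. The difference for Cxcl1 was at least 2.90-fold (measured 3.14, 1.80 to 4.48, adjusted p = 0.099). It was 1.36 for Ccl11 (0.37 to 2.35, adjusted p = 0.226), 0.61 for Cxcl12 (0.13 to 1.09, adjusted p = 0.243) and -1.19 for Ccl8 (-1.81 to -0.57, adjusted p = 0.143).

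Against wild type, the normal skin of Mutant113 alone had Cxcl1 at least 2.32-fold higher (measured 3.07, limma adjusted p = 0.0506). This comparison lies within slide row 2, but Xist was well above background in Mutant113 and not in wild type. Mutant097 gave -0.07 for it (-1.41 to 1.27, adjusted p = 0.952). Both numbers had higher Cxcl14, by 1.11 and 0.76 (adjusted p = 0.0762 and 0.166), and lower Ccl6, at -0.80 and -0.96 (adjusted p = 0.22 and 0.164).

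The difference in lesion effect between the numbers was tested directly, and limma called 0 of 26 ligands, beside 0% of all probes. At an unadjusted p under 0.05 it gave Cxcl1, at -2.66 (-4.98 to -0.34, adjusted p = 0.479), and Xcl1, at 1.55 (0.35 to 2.75, adjusted p = 0.421), beside 9.5% of all probes. Hair loss minus normal skin gave 16 higher and 10 lower ligands within Mutant097 and 21 higher and 5 lower within Mutant113, with 0 called in each, beside 0.628% and 0.00329% of all probes. The median over the ligands was 0.23 within Mutant097 and 0.42 within Mutant113, against -0.03 and 0.03 over all probes. Cxcl13 had differences of 2.38 and 0.97. Ccl3 gave 2.53 within Mutant113. Ccl3 and Cxcl5 have no difference to report within Mutant097, where no sample was well above background for either. Both are among the 16 ligands counted as higher there.

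In 6 ligands the hair loss sample lay above both normal skin samples of 1 number and below both of the other number, as did 29.3% of all probes. These were Ccl8, Ccl11, Ccl27a, Cx3cl1, Cxcl14 and Xcl1.

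**Figure D4:**
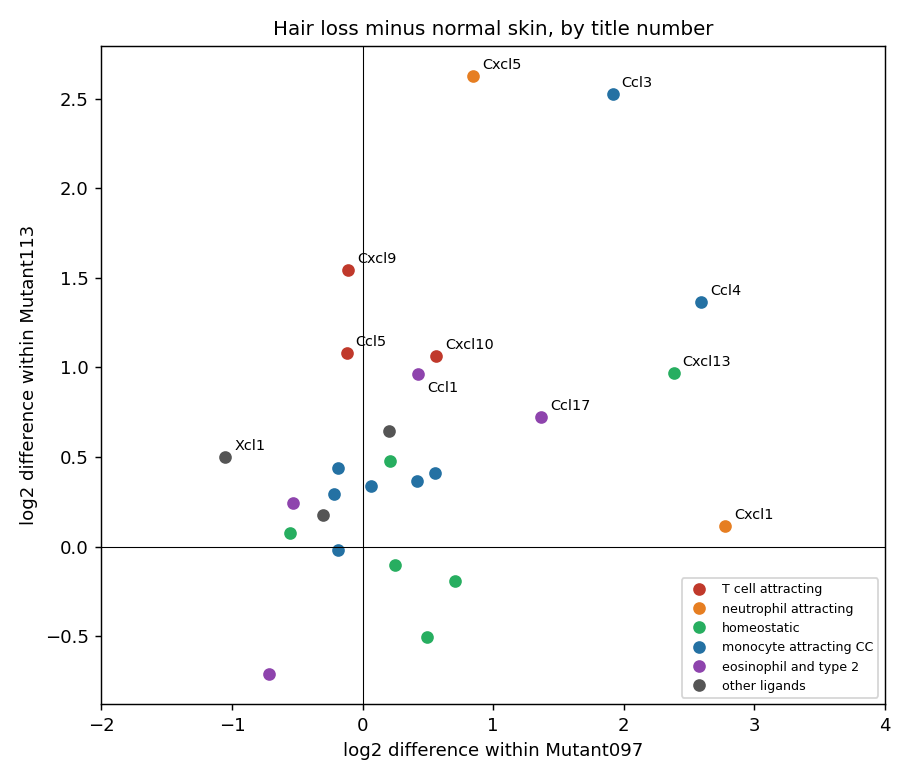
Log2 difference between hair loss and normal skin within Mutant097 (x axis) and within Mutant113 (y axis), 1 point for each of 26 ligands coloured by list, with 1 hair loss sample behind each value. Ccl4 lies at 2.59 and 1.37 and the T cell attracting ligands at 1.06 to 1.54 in Mutant113. Ccl3 and Cxcl5 were not well above background in any sample of Mutant097. The position of Cxcl1 on that axis is measured against normal skin not well above background, where only the bound of 2.26-fold holds.

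The receptors were counted from lists of the family. Of 9 CC receptors listed 8 were tested, 5 higher and 3 lower in hair loss than in mutant normal skin, and of 8 CXC and other receptors 5 were tested, all higher, with 0 called by limma in either list. Unadjusted p-values under 0.05 were reached by 1 CC receptor and 2 of the others, beside 5.2% of all probes. Ccr2, the receptor of Ccl2, was at 0.29 and 0.85 in hair loss, at -0.51, -0.23, 0.23 and -0.06 in mutant normal skin and at 0.41 and 0.40 in wild type (hair loss minus mutant normal skin 0.71, adjusted p = 0.923). Cx3cr1 was at 0.19 and 0.94 in hair loss, at -0.54, -0.16, 0.19 and -0.37 in mutant normal skin and at -0.70 and -0.40 in wild type (0.78, adjusted p = 0.928). Hair loss lay above all mutant normal samples for Cx3cr1, in Mutant097 by a small margin.

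The 4 atypical receptors, which bind chemokines without signalling through G proteins and clear or carry them, had lower means in hair loss than in both other groups. Their median difference was -0.53 from mutant normal skin and -0.82 from wild type, with 0 called by limma. At an unadjusted p under 0.05 there were 0 and 1, beside 5.2% and 24.8% of all probes. Within Mutant097 all 4 were lower in hair loss than in normal skin (median -1.11). In Mutant113 2 were higher and 2 lower (median -0.05). For Ackr2 and Ackr4 the lower mean comes mostly from the hair loss sample of Mutant097, at 0.65 and -0.86. That of Mutant113 was at 1.70 and 0.45, beside mutant normal means of 1.69 and 0.55. For Ackr3 both hair loss samples, at 1.83 and 1.76, lay below the mutant normal mean of 2.30. Both also lay below it for Ackr1, where it was 1.38. Ackr1, found on blood vessels, was at 0.75 and 0.92 in hair loss, from 0.66 to 2.23 in mutant normal skin and at 2.02 and 2.43 in wild type (hair loss minus wild type -1.39, adjusted p = 0.132). Their summed level was 14.3 and 17.8 times the 75th percentile in wild type, 8.60 to 17.6 in mutant normal skin and 7.34 and 9.88 in hair loss. Blood endothelium markers summed to 12.8 and 13.1 in wild type, 8.16 to 11.9 in mutant normal skin and 7.57 and 9.50 in hair loss, and their part in the receptor levels was not tested.

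Of 9 cytokine genes with a probe that induce chemokines, 5 were tested, and Il17a and Il17f were above background on 0 arrays. In the 3 group comparisons limma called 0 of the 5. In hair loss 1 was higher than in mutant normal skin at an unadjusted p under 0.05, beside 5.2% of all probes. Il1b, which drives NF-kB, was at 0.04 and -0.94 in hair loss, at -1.11, -0.44, -1.42 and -1.36 in mutant normal skin and at -2.40 and -1.82 in wild type, below every mutant sample (hair loss minus wild type 1.66, limma adjusted p = 0.0874). Il6 was at -2.22 and -2.78 in hair loss, from -4.46 to -2.92 in mutant normal skin and at -5.01 and -4.41 in wild type, and was above background on 4 arrays, none of them wild type. Hair loss was at least 1.83-fold higher than wild type (measured difference 2.21, limma adjusted p = 0.0765). In the model by number, limma called 3 of the 5 in the hair loss sample of Mutant097 against wild type, beside 6.03% of all probes. Il1b was higher by 2.15 (adjusted p = 0.0408) and Il6 at least 2.22-fold higher (adjusted p = 0.0298), and Il4 was at least 1.43-fold lower and not well above background in that sample (adjusted p = 0.0474). Il6 was also called in normal skin of Mutant113, at least 1.32-fold higher than wild type (adjusted p = 0.0481), beside 3.26% of all probes. The 7 interferon-gamma signalling genes described here had a median difference of 0.13 between hair loss and mutant normal skin and the 7 NF-kB genes one of 0.04. There limma called 0 in both lists, with 1 and 0 at an unadjusted p under 0.05, beside 5.2% of all probes.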

How the data were processed

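Total RNA of 8 skin samples was labelled with Cy3 and hybridised to 1-colour Agilent arrays on 1 slide, per the labels' protocols. The deposited scanner tables hold the processed intensity of each spot, which Agilent Feature Extraction 11.5.1.1 corrected for background, per the file headers (design build mm9). The log2 values deposited by the authors equal these up to a constant per array and were used as an alternative. Spots flagged as outliers (118 to 210 per array) were left out and 0 were saturated. Intensities were averaged over the spots of a probe, and their log2 was taken minus the 75th percentile of the array (83.1 to 211 intensity units); 25424 to 30205 probes per array were well above background.

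Probes well above background on at least 2 of 8 arrays (30417 of 55603) were tested with limma 3.58.1 in R 4.3.3, in 1 model of the 3 groups over all 8 samples (5 residual and 2.71 prior degrees of freedom). A second model of group by title number (3 and 2.51) gave the values by number. Tests were two-sided at an adjusted p of 0.05 (Benjamini-Hochberg over all probes tested), intervals are 95% intervals of limma, and the number of arrays limits the precision. A gene on no array of the dimmer group above background has a bound: the brighter mean over, per array, the larger of its own signal there and the faintest signal marked as well above background. Gene names come from the RefSeq table.

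Alternatives were normexp (offset 50), quantile normalization, the authors' values, other filters, other probes, samples left out, blocks of title number and slide row, and the mean per title number. Normexp used the median spot signal and not the mean signal as planned, because the tables analysed hold the median. Values in every sample were given for detected T cell attracting, neutrophil attracting and homeostatic ligands and for others with a log2 difference of at least 1 between groups in which the brighter group was detected throughout; further ligands and genes were named after their values were seen. The members and lists were chosen with earlier results of these data known. Some genes are not reported here. The fits were tested on simulated data.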

Additional observations from a re-analysis of the deposited data

Results flagged for a closer look

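Among the 26 ligands, each scanned in the 4 mutant normal skin samples, 1 sample stood apart: Ccl27a in normal skin sample 2, from Mutant097, was at 6.61 with the others from 5.89 to 5.96 and its gap of 0.903 of the group's range lay above the 95% critical value of Dixon's test. Chance marks about 1 in 20 such groups, and 26 were scanned, so 1 flagged sample is about what chance gives.

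For 6 ligands the hair loss sample lay on opposite sides of the normal skin samples in the 2 title numbers, as did 29.3% of all probes. In Mutant097 and Mutant113 the difference between hair loss and normal skin was -0.53 and 0.25 for Ccl11 (limma adjusted p of the difference between the numbers 0.787). It was -0.56 and 0.074 for Ccl27a (adjusted p = 0.763), -0.18 and 0.44 for Ccl8 (0.724) and -0.30 and 0.17 for Cx3cl1 (0.675). Cxcl14 gave 0.49 and -0.50 (0.528), and Xcl1 gave -1.05 and 0.50 (0.421). None of the 6 passed the test of the difference, and each value rests on 1 hair loss sample.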

How the results depend on the processing

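The count of ligands past an adjusted p of 0.05 in limma was 0 for hair loss minus mutant normal skin and for the difference in lesion effect under every alternative that could be fitted; the interaction could not be fitted without either hair loss sample. For hair loss minus wild type the count was 1 with the filter asking for every array of a group (Ccl4), 2 with the slide row as a block (Ccl4 and Cxcl1) and 0 to 1 with 1 sample left out (Ccl4, without mutant normal skin sample 2 or 3). For mutant normal skin minus wild type it was 1 with the slide row as a block (Cxcl1, adjusted p = 0.0339), and for the title numbers in normal skin 0 to 1 with 1 sample left out (1 without mutant normal skin sample 2). Wild type lies in row 2 only, where the mutant normal skin is that of Mutant113. Mutant normal skin minus wild type with the row as a block is therefore Mutant113 minus wild type. For Cxcl1 it was 3.07, where Mutant097 gave -0.07. Hair loss minus wild type with that block has the limit given for Cxcl1 above. With the replicate block of title number the count for hair loss minus mutant normal skin was 0. The labels do not make the number a pairing. The difference between the numbers in hair loss correlated with that in normal skin at r = 0.13 over 30417 probes, which are not independent. This value cannot decide on a pairing, since it rests on 1 hair loss array per number and the rows differ in normal skin only. Xist and the Y-linked genes went with the number, as given above. Over all probes the lowest count of calls across the alternatives was 0 for each of the 3 group comparisons. The highest count for mutant normal skin minus wild type, 991, came from Mutant113 alone and not from a change of processing. For both hair loss comparisons the highest came from Mutant097 alone, with 1 hair loss sample, and is not given. The count ran from 6 to 465 for the title numbers and from 0 to 287 for the interaction, which has 1 hair loss sample per number.

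Of 78 single differences (26 ligands in 3 comparisons), 41 kept their direction under all alternatives and 37 changed it at least once; none of the 37 was called. Of 1208 values under alternatives, 1139 kept direction and side of the threshold, 6 passed it and 63 were of the opposite sign, 45 of them with a sample left out. Outside the samples left out, hair loss minus mutant normal skin turned to 0.54 for Ccl11, -0.18 for Ccl12, -0.47 for Ccl8 and 0.17 for Cxcl14 with the row as a block, to 0.020 for Cxcl14 with normexp, and to 0.0028 for Ccl27a with another probe. Mutant normal skin minus wild type turned to 0.18 for Cxcl10 with the row as a block and to 0.15 for Ccl3 with quantile normalization. With normexp it turned to 0.040 for Ccl27a, -0.030 for Ccl4, 0.053 for Ccl7 and -0.086 for Cxcl5, and with another probe to -0.067 for Ccl19, 0.45 for Ccl27a and -0.60 for Cxcl12. Hair loss minus wild type turned to 0.21 for Cxcl9 with the row as a block and, with another probe, to 0.45 for Ccl27a and -0.034 for Cxcl12. The cause was not tested.

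For hair loss minus mutant normal skin the ranges with 1 sample left out that crossed 0 were Ccl11 -1.22 to 0.93, Ccl12 -0.040 to 0.45, Ccl25 -0.069 to 0.59, Ccl5 -0.28 to 1.24, Ccl6 -0.27 to 0.064, Ccl8 -0.18 to 0.41, Ccl9 -0.20 to 0.28, Cx3cl1 -0.31 to 0.18, Cxcl12 -0.058 to 0.24, Cxcl14 -0.33 to 0.32, Cxcl9 -0.45 to 1.88 and Xcl1 -0.80 to 0.25. For mutant normal skin minus wild type the ranges with 1 sample left out that crossed 0 were Ccl11 -0.18 to 0.60, Ccl2 -0.19 to 0.80, Ccl27a -0.34 to 0.083, Ccl3 -0.57 to 0.12, Ccl7 -0.60 to 0.48, Cxcl10 -1.26 to 0.74, Cxcl13 -1.84 to 0.066, Cxcl16 -0.071 to 0.36, Cxcl5 -0.46 to 0.65 and Xcl1 -0.52 to 0.21. For hair loss minus wild type the ranges with 1 sample left out that crossed 0 were Ccl11 -1.01 to 1.13, Ccl17 -0.24 to 0.62, Ccl5 -1.31 to 0.20, Ccl7 -0.21 to 0.87, Cx3cl1 -0.062 to 0.43, Cxcl10 -0.45 to 1.55, Cxcl13 -0.16 to 1.74, Cxcl9 -1.62 to 0.71 and Xcl1 -0.96 to 0.10. With 2 to 4 arrays per group and several ligands near background, intervals of single differences often span more than 1 log2 unit, and a difference that misses the threshold is not shown to be absent.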
